A study of Mus musculus with 6 samples.

Results

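Genes of folding, quality control and stress signalling in the endoplasmic reticulum were compared between CD133+ and CD133- cells of KPC001, a mouse pancreatic cancer line. The set was a list of 53 genes, and its members were the array probes whose platform annotation carried 1 of these symbols. Probes were found for 51 of the 53 genes, out of 19057 genes on the array, and numbered 104 of 45281 probes. Dnajb11 and Fkbp10 had no probe under those symbols. A probe was tested when its detection p was under 0.05 on at least 3 of the 6 arrays, which left 66 probes of 41 member genes among 17219 tested probes.

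KPC001 comes from the KPC mouse model, in which tumours arise in the pancreas of engineered animals. It is a single line, grown in high-glucose medium with serum and given no treatment, and was divided into populations by CD133, a membrane glycoprotein (gene Prom1) used to enrich tumour-initiating cells. Total RNA from 3 CD133+ and 3 CD133- samples was hybridised to Illumina whole-genome bead arrays in 1 colour. Whether a group's samples are separate cultures or separate sorts is not said in the labels. A p-value here thus rests on the spread among these 3 samples per group, which may be purely technical. It also rests on the spread over all tested probes, toward which the test draws each probe's variance.

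Secreted and membrane proteins fold in the endoplasmic reticulum with the help of calcium-dependent chaperones, lectins and enzymes that form disulfide bonds. When unfolded proteins accumulate, the membrane sensors Ern1 (IRE1), Eif2ak3 (PERK) and Atf6 start the unfolded protein response through the transcription factors Xbp1, Atf4 and the cleaved form of Atf6, which raise chaperones, degradation factors and, on prolonged stress, Ddit3 (CHOP). Cells of the exocrine pancreas carry a heavy secretory load and depend on this response.

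Between 17123 and 18057 probes were detected per array, with a median of 37 to 41 beads behind a probe. Arrays of the same group correlated at 0.991 to 0.992 over the tested probes, and arrays of different groups at 0.987 to 0.989. None of the 3 Prom1 probes was detected on any array, so the sorted antigen could not be checked at the RNA level. Of 9 epithelial and ductal markers, 8 were detected on all 6 arrays, and the Epcam probe on none. Mesenchymal markers were detected too, 3 of 4 genes on all 6 arrays. Of the acinar and endocrine markers 8 had a probe, 6 of these were detected on no array, and Cela1 was detected on all 6, at means of 6.71 and 6.62 (log2) in CD133- and CD133+ cells. Of 6 fibroblast and stellate markers, Col1a1 was the one detected on all arrays, at 7.11 and 6.84. Summed over their probes, leukocyte markers lay between 315 and 317 intensity units on the CD133- arrays and between 293 and 301 on the CD133+ arrays, and fibroblast and stellate markers between 366 and 409 against 320 to 364. Summed mesenchymal markers, at 8896 to 9611 against 8971 to 9958, and acinar and endocrine markers, at 337 to 352 against 339 to 375, overlapped between the groups. So did endothelial markers, at 217 to 232 against 222 to 236. Tested were 2 of 13 leukocyte, 1 of 11 fibroblast and stellate, 1 of 12 acinar and endocrine and 2 of 9 endothelial probes. The sums of these lists are therefore mostly background and offset, and do not show how many such cells were present. The summed epithelial markers lay between 26681 and 27365 against 24649 to 25526. Of 24 tested marker probes, 0 passed the limma test described below. The same test gave an unadjusted p under 0.05 for 6, 3 higher and 3 lower in CD133+ cells, beside 16.6% of all tested probes. The part of these shifts in the results was not tested. In RNA from a whole population, fewer cells of a type and less RNA per cell cannot be told apart.

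The comparison asked which member genes differed between the CD133+ and CD133- populations. Levels below are log2 intensities after background correction with an offset of 16 and quantile normalisation, listed as replicates 1, 2 and 3 of a group. Differences are CD133+ minus CD133-, given ± the standard error of the limma fit with n = 3 per group. That error comes from the variance after it was drawn toward the one shared by all tested probes. A probe passed where its p, adjusted by Benjamini-Hochberg over all tested probes, was under 0.05. Of the 66 tested member probes, 3 passed (4.55%), against 1.53% of all tested probes. All 3 were higher in CD133+ cells, a direction in which 1.25% of all tested probes passed. They belonged to Calu, which encodes the calcium-binding protein calumenin, and to Asph. The latter encodes the aspartate beta-hydroxylase and, by alternative splicing, junctin and the calcium-binding protein junctate. The other 39 genes, from chaperones and sensors to translocation proteins, had 54 tested probes. By the way they were set apart, 0 of these passed by limma. An unadjusted p under 0.05 was found for 5 of them (9.26%), beside 16.6% of all tested probes. These shares are not alike, since genes with passing probes were left out of the first only. With Calu and Asph kept in, the share was 16.7%.

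The members' median difference was 0.01, beside -0.02 over all tested probes, and 44 of the 66 lay within 0.2 of zero on the log2 scale. At an unadjusted p under 0.05 there were 11 member probes (16.7%), beside 16.6% of all tested probes. Of these, 6 were higher and 5 lower, directions that took 9.08% and 7.53% of all tested probes. The groups did not overlap for 19 member probes (28.8%), 9 higher and 10 lower, beside 23.1% of all tested probes, 11.5% higher and 11.6% lower. Member differences ranged from -0.66 for Hyou1 to 0.99 for a Calu probe. When each array was shifted to a common median in place of quantile normalisation, the median over all tested probes moved from -0.02 to -0.13. The member median moved to -0.12, and 1 member probe passed. Differences given below under the median shift stand beside that -0.13, so a small one can change sign with all probes.

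**Figure D1:**
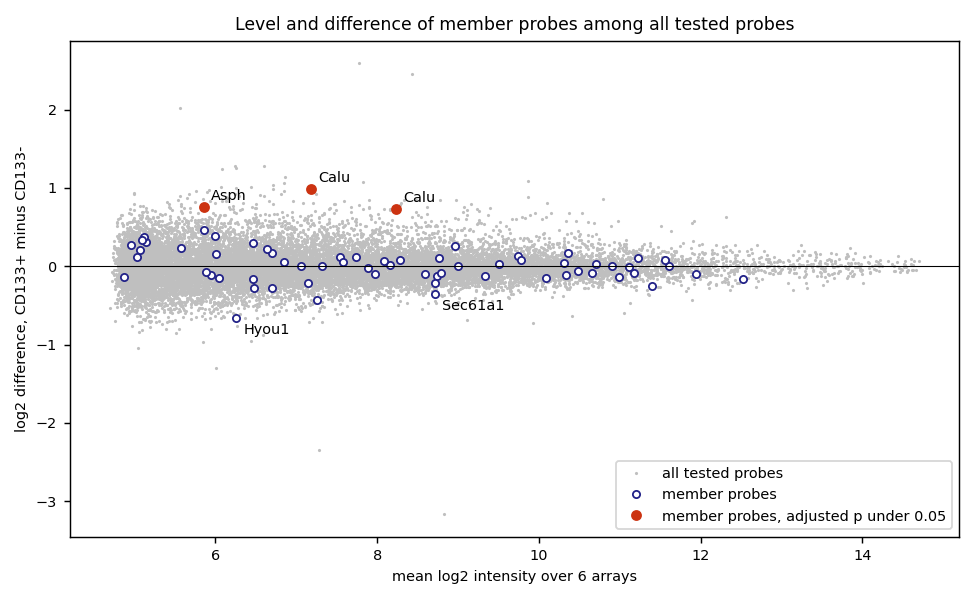
Mean log2 intensity over the 6 arrays (x axis) against the log2 difference between CD133+ and CD133- cells (y axis) for all 17219 tested probes (grey) and the 66 member probes (circles, filled where the adjusted p was under 0.05). The 3 filled points, 2 of Calu and 1 of Asph, lie between 0.73 and 0.99, and most other members lie near zero.

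Calumenin is a calcium-binding protein of the secretory pathway with several EF hands. Its gene had 4 probes, all detected on all 6 arrays. The probe ILMN_1216590 read 6.69, 6.56 and 6.81 on the CD133- arrays and 7.52, 7.98 and 7.52 on the CD133+ arrays. Every CD133+ array lay above every CD133- array, and the signal rose by 0.99 ± 0.14 (95% interval 0.65 to 1.32), a 1.98-fold difference with an adjusted p of 0.0296. A second probe, ILMN_1218668, read 7.72, 7.91 and 7.97 against 8.63, 8.76 and 8.40, again without overlap. It rose by 0.73 ± 0.12, or 1.65-fold, with an adjusted p of 0.0394. The other two Calu probes did not pass. ILMN_2771956 read 11.62, 11.57 and 11.62 in CD133- and 11.59, 11.66 and 11.58 in CD133+ cells, with overlapping groups and a difference of 0.01 ± 0.08 (95% interval -0.18 to 0.19, adjusted p = 0.982). Under the median shift this difference was -0.16. ILMN_1228287 read 11.22, 11.19 and 11.25 against 11.11, 11.22 and 11.06, a difference of -0.09 ± 0.08 with an adjusted p of 0.647. The platform annotation places ILMN_1216590 on the Calu transcript NM_184053 and the other three probes on NM_007594. The probes' positions within these transcripts are not given in the sources used here.

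Asph had 14 probes on the array, of which 8 were tested and 6 were not. ILMN_2606990 read 5.40, 5.36 and 5.70 on the CD133- arrays and 6.34, 6.30 and 6.06 on the CD133+ arrays. All CD133+ values lay above all CD133- values, and the signal rose by 0.75 ± 0.13 (95% interval 0.46 to 1.04), 1.68-fold, with an adjusted p of 0.0399. ILMN_2610809 read 5.54, 5.69 and 5.67 against 6.15, 5.99 and 6.16. ILMN_1235836 was detected on 1 CD133- and 3 CD133+ arrays, and read 5.06, 4.81 and 4.92 against 5.57, 5.28 and 5.08. Neither passed, although the groups did not overlap, with differences of 0.47 ± 0.09 (adjusted p = 0.0571) and 0.38 ± 0.14 (adjusted p = 0.234). ILMN_1233759 ran the other way, at 7.54, 7.44 and 7.43 in CD133- and 7.25, 6.97 and 6.89 in CD133+ cells. Every CD133+ array lay below the CD133- arrays for this probe, with a difference of -0.43 ± 0.11, an unadjusted p of 0.0055 and an adjusted p of 0.115.

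The remaining 4 tested Asph probes had overlapping groups. ILMN_2610810 read 6.23, 5.95 and 5.21 against 6.17, 6.52 and 5.85, a difference of 0.38 ± 0.28. ILMN_2594584 read 5.11, 5.37 and 4.48 against 4.98, 5.79 and 5.14, a difference of 0.31 ± 0.28. These probes lay near background, and the third CD133- array was the lowest for both. ILMN_2671843 read 5.16, 4.94 and 4.37 against 5.01, 5.29 and 4.98, a difference of 0.27 ± 0.20. ILMN_2708404 read 4.47, 5.25 and 5.17 against 5.14, 5.09 and 5.31, a difference of 0.21 ± 0.20 with an adjusted p of 0.655. Here the first CD133- array was the lowest value, and without it the difference was -0.03. All 8 tested Asph probes are annotated to the transcript NM_023066.

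**Figure D2:**
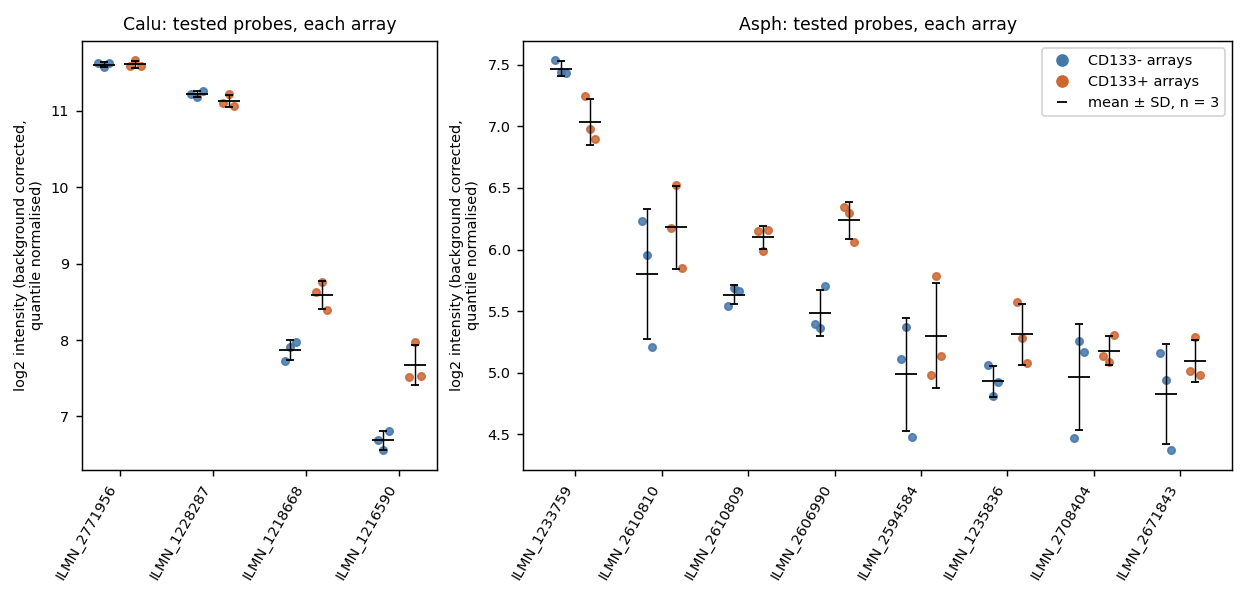
Log2 intensity (y axis) of each tested probe of Calu (left) and Asph (right) on the CD133- (blue) and CD133+ (orange) arrays, with the mean and SD of 3 arrays as black bars. The brightest probe of each gene does not show the rise seen in ILMN_1216590 and ILMN_1218668 of Calu and ILMN_2606990 of Asph.

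Whether probes of a gene differed in their change was tested on the log2 gap between the gene's brightest tested probe and each of its other tested probes within an array. The gap has no meaning as a level, since probes bind with unequal strength, but its change between groups does not depend on a constant offset between probes. Of 5322 such pairs on the array 55 passed at an adjusted p under 0.05, or 1.03%, and 16.1% had an unadjusted p under 0.05. Among 25 pairs of 15 member genes, 4 passed (16%), 3 of Asph and 1 of Calu. In all 4 the dimmer probe moved up relative to the brightest one, as in 35 of the 55 passing pairs of all genes.

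For Asph, the gap between ILMN_1233759 and ILMN_2606990 was 2.14, 2.08 and 1.73 on the CD133- arrays and 0.91, 0.67 and 0.83 on the CD133+ arrays. Every CD133+ gap was smaller than every CD133- gap, and the group means differed by -1.18 ± 0.16 (adjusted p = 0.0217). Its gap to ILMN_2610809 was 1.99, 1.75 and 1.76 against 1.10, 0.99 and 0.74, a change of -0.90 ± 0.15 (adjusted p = 0.0377). The gap to ILMN_1235836 was 2.48, 2.63 and 2.51 against 1.68, 1.69 and 1.81, a change of -0.81 ± 0.13 (adjusted p = 0.0331). All 7 Asph pairs had an unadjusted p under 0.05 in the same direction, and all 7 share the probe ILMN_1233759. Of their other probes, ILMN_1235836 was detected on 1 CD133- array, and ILMN_2594584, ILMN_2671843 and ILMN_2708404 on 2. Each of these was detected on 3 CD133+ arrays, so it met the filter through the group where it read higher. The shared direction of their pairs could thus be partly set by the filter. For Calu, the gap between ILMN_2771956 and ILMN_1216590 was 4.93, 5.01 and 4.81 against 4.06, 3.68 and 4.06, a change of -0.98 ± 0.15 (adjusted p = 0.0320). The Calu pair with ILMN_1218668 changed by -0.72 ± 0.14 and missed the threshold (adjusted p = 0.0541), and the pair of the 2 brightest probes differed by 0.10 ± 0.12 (adjusted p = 0.778). The other 13 member genes had 15 pairs, with 0 passing by limma, since the genes with passing pairs had been set aside. Of the 15, 1 had an unadjusted p under 0.05 (6.67%, beside 16.1% of all pairs). That was a pair of the stress-induced pseudokinase gene Trib3 (-0.37 ± 0.14, adjusted p = 0.236). With Asph and Calu kept in, 10 of the 25 member pairs (40%) had such a p.

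The size and call of these differences moved with the processing. Without background correction the 2 Calu probes differed by 0.59 and 0.55 and the Asph probe ILMN_2606990 by 0.28, and on the authors' intensities by 0.60, 0.55 and 0.29, and all passed under both. ILMN_1233759 of Asph also passed under both, at -0.26 (adjusted p = 0.0169) and -0.24 (adjusted p = 0.0253), as did Hyou1, Pdia3 and Sec61a1. Of the 66 tested member probes 7 passed under each, while 6.43% and 6.72% of all tested probes passed, beside 1.53% as reported. Leaving out any 1 of the 6 arrays ended all 3 calls, with adjusted p between 0.0705 and 0.111 for ILMN_1216590, 0.0699 and 0.130 for ILMN_1218668, and 0.0653 and 0.138 for ILMN_2606990, while the differences stayed between 0.65 and 1.06. The calls of the 4 member pairs ended likewise, except that the Asph pair with ILMN_2606990 passed without the third CD133- array (adjusted p 0.0421 to 0.130 over the 6). With a variance trend and a robust fit 7 of 66 member probes passed, beside 6.37% of all tested probes. They were the 3 above with ILMN_1233759 of Asph and those of Hyou1, Pdia3 and Sec61a1. With the filter at a detection p under 0.01 on all arrays 6 of 57 passed, beside 4.16% of all probes then tested. These were the 3 above with ILMN_2610809 of Asph and those of Hyou1 and Sec61a1. Averaged over the tested probes of a gene, Calu differed by 0.41 ± 0.09 (adjusted p = 0.0993) and Asph by 0.29 ± 0.10 (adjusted p = 0.208), and neither passed.

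**Figure D3:**
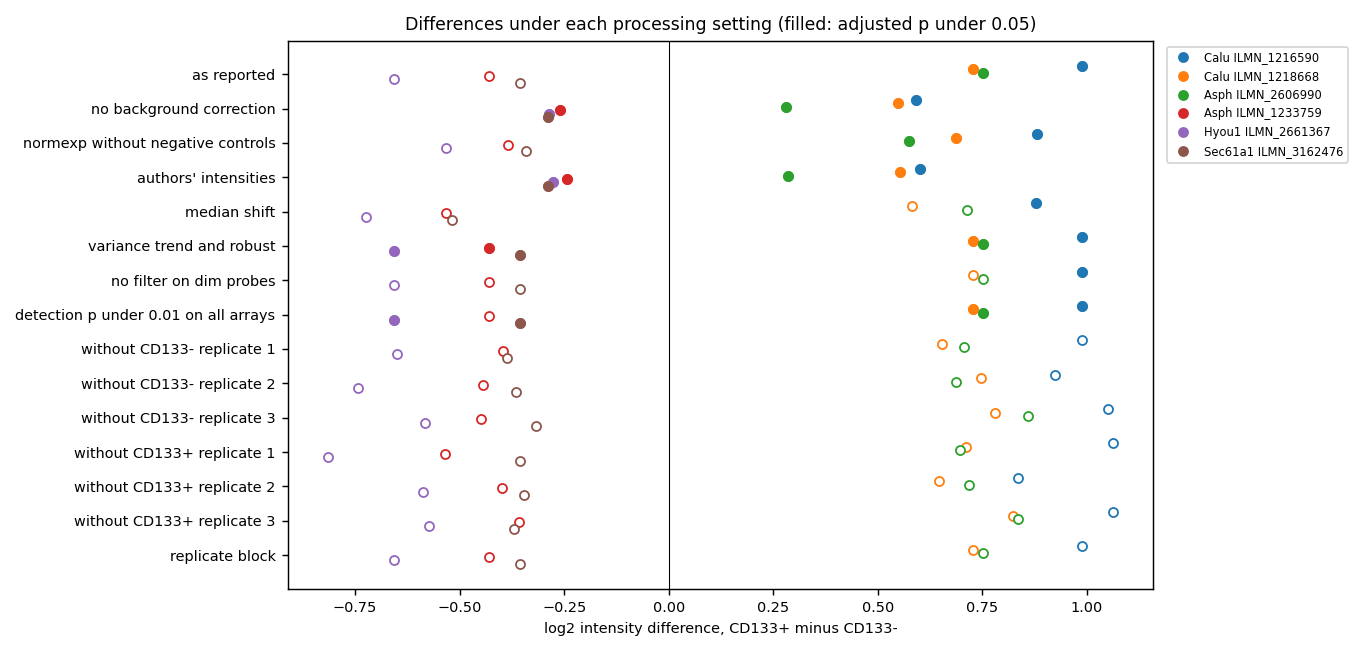
Log2 difference between CD133+ and CD133- cells (x axis) for 6 member probes under each processing setting (y axis), filled where the adjusted p was under 0.05. Directions were the same in every setting shown, and no point is filled where 1 array was left out or the replicate number was a block.

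The calcium-binding and lectin group held 9 genes, of which 4 were tested with 14 probes. Its 3 passing probes (21.4%, beside 1.53% of all tested probes) were those of Calu and Asph, and 12 of its 14 tested probes were of these genes. Its median difference was 0.29, beside -0.02 over all tested probes, and was 0.18 without the third CD133- array, 0.11 without background correction and 0.10 on the authors' intensities. Calr encodes calreticulin, the luminal lectin chaperone that holds glycoproteins and buffers calcium. It read 8.69, 8.94 and 8.86 in CD133- and 9.22, 9.10 and 8.93 in CD133+ cells. The groups overlapped, and the difference of 0.26 ± 0.11 did not pass (adjusted p = 0.302). Sdf4, a calcium-binding protein of the Golgi, differed by -0.08. Canx (calnexin), Uggt1, which re-glucosylates misfolded glycoproteins, and the reticulocalbin genes Rcn1, Rcn2 and Rcn3 had no tested probe.

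The chaperone group held 6 probes of 5 tested genes, and 0 passed by limma. With an unadjusted p under 0.05 there was 1 (16.7%, beside 16.6% of all tested probes). Hyou1, a large chaperone that acts as a nucleotide exchange factor for Hspa5, read 6.60, 6.42 and 6.74 on the CD133- arrays and 6.24, 5.78 and 5.76 on the CD133+ arrays. All CD133+ arrays were below all CD133- arrays, with a difference of -0.66 ± 0.15 (95% interval -1.02 to -0.30) that did not pass (adjusted p = 0.0895). It passed without background correction (-0.29, adjusted p = 0.00999) and on the authors' intensities (-0.28, adjusted p = 0.0110). Under these settings 6.43% and 6.72% of all tested probes passed. Hspa5 (BiP), the chief luminal chaperone and the usual readout of the unfolded protein response, read 6.03, 6.16 and 5.81 against 5.91, 5.68 and 6.07. Its groups overlapped, and the difference was -0.12 ± 0.13 (95% interval -0.43 to 0.20, adjusted p = 0.720). This only Hspa5 probe was dim, at 147 to 171 before correction, beside array medians of 115 to 123 over all probes. The offset makes its difference smaller, so a change in Hspa5 could be missed. Hsp90b1, the luminal Hsp90 chaperone, read 10.98, 11.11 and 11.10 against 10.86, 10.93 and 10.97. Its CD133+ values were all the lower ones, by a margin that did not pass (-0.14 ± 0.08, adjusted p = 0.457). The cochaperone genes Dnajb9, with differences of 0.12 and 0.23, and Dnajc3, at 0.01, did not pass either.

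Promoters are shown for chaperone and lectin genes because the ER stress response element, the sequence through which Atf6 and Xbp1 act, links them to the stress signal. The windows run from 250 bases before to 50 after the gene start and come from RefSeq, build GRCm38.p6, printed 5′ to 3′ on the strand of the gene. Hspa5 lies at chr2:34771840-34772139 (plus strand), Hsp90b1 at chr10:86705395-86705694 (minus), Calr at chr8:84846882-84847181 (minus), Pdia6 at chr12:17266339-17266638 (plus) and Calu at chr6:29347856-29348155 (plus). Capitals in the first 4 mark matches, on either strand, to the element CCAAT, then 9 bases of any kind, then CCACG, and in Calu to CCACG alone.
Hspa5: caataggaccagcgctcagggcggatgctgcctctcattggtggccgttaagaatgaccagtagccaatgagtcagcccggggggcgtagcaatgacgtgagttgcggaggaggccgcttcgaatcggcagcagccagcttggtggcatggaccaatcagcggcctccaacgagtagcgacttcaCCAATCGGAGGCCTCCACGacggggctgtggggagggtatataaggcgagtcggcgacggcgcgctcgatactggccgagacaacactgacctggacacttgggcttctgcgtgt
Hsp90b1: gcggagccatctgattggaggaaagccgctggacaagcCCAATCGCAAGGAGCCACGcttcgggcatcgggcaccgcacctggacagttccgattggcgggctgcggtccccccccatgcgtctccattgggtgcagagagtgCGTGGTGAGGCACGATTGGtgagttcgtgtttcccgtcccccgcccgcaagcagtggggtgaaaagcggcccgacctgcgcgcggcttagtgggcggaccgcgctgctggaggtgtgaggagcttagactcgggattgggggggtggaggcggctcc
Calr: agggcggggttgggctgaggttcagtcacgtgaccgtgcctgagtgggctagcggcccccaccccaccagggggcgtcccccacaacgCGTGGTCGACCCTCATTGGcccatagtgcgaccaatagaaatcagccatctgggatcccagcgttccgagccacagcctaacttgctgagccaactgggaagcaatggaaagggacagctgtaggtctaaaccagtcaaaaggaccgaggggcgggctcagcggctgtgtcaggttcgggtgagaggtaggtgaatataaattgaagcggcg
Pdia6: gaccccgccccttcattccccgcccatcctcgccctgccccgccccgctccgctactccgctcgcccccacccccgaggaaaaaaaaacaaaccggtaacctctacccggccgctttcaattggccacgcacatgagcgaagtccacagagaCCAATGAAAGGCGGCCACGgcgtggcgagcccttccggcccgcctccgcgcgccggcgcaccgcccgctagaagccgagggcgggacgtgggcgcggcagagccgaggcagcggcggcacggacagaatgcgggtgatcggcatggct
Calu: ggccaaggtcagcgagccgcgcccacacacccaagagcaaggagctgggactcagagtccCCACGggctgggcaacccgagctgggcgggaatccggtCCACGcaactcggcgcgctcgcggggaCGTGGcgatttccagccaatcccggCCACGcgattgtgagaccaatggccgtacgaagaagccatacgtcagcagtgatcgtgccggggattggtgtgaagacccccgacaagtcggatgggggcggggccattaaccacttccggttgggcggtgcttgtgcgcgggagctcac

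Promoter windows were found for 44 of the members, 51 windows in all. The full element occurred in 8 of the 51 (15.7%), in Hspa5, Hsp90b1, Calr, Canx, Creld2, Dnajc3, Pdia6 and Syvn1, and in 39 of 32851 windows of all genes (0.119%). Hsp90b1 had 2 matches, at -212 to -194 and, on the other strand, at -107 to -89 from the gene start. The single match in Hspa5 lay at -65 to -47 and that in Calr at -162 to -144. Calu held 4 matches to CCACG but none to the full element, and CCACG occurred in 36 of the 51 member windows (70.6%) and in 32.8% of all. The element TGACGTGG occurred in 1 member window, of Txndc5, and in 0.676% of all windows, and TGATGCAA, of the kind bound by Atf4, in Atf3, Chac1 and Herpud1 and in 0.895% of all. A match is a run of letters and was not tested as a binding site. Of the 8 genes with the full element, 7 were tested with 9 probes, of which 4 were higher and 5 lower in CD133+ cells, from -0.28 to 0.26. By limma 0 of these 9 passed, and 0 had an unadjusted p under 0.05.

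Enzymes that form disulfide bonds and isomerise prolines had 8 tested probes of 7 genes, with a median difference of -0.14. Of the 8 probes, 0 passed by limma and 1 had an unadjusted p under 0.05 (12.5%, beside 16.6% of all tested probes). Pdia3, the isomerase that works with calreticulin and calnexin on glycoproteins, read 11.47, 11.61 and 11.50 in CD133- and 11.19, 11.39 and 11.23 in CD133+ cells. The CD133+ arrays were all lower, with a difference of -0.26 ± 0.09 (adjusted p = 0.231). It passed without background correction (-0.25, adjusted p = 0.0270) and on the authors' intensities (-0.24, adjusted p = 0.0299). Of all tested probes, 6.43% and 6.72% passed there. P4hb, the founding protein disulfide isomerase, read 12.56, 12.59 and 12.63 against 12.50, 12.43 and 12.39. These groups were also apart, by -0.16 ± 0.08 (adjusted p = 0.381). Pdia6 ILMN_2489360 read 7.04, 6.86 and 6.59 against 6.57, 6.68 and 6.42, overlapping at -0.28 ± 0.13, and its second probe had the opposite sign at 0.15 ± 0.15. Pdia4 read 9.67, 9.35 and 9.47 against 9.47, 9.47 and 9.62, a difference of 0.02 ± 0.11 (adjusted p = 0.943), or -0.15 under the median shift. The isomerases Pdia5 (-0.16) and Txndc5 (-0.12) and the cyclophilin gene Ppib (-0.06) did not pass.

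Luminal proteins raised by stress had 3 tested probes of 2 genes, 0 passing by limma. Of the 3 probes, 1 had an unadjusted p under 0.05 (33.3%, beside 16.6% of all tested probes). Sdf2l1, a partner of luminal chaperones, read 6.16, 6.44 and 6.36 on the CD133- arrays and 6.56, 6.81 and 6.48 on the CD133+ arrays. All CD133+ values were above the CD133- values, with a difference of 0.29 ± 0.12 (adjusted p = 0.284). The 2 probes of Creld2 differed by -0.12 and -0.11, and Manf, a secreted stress factor, had no tested probe.

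Of the 3 sensors, Ern1 and Atf6 were tested with 3 probes, of which 0 passed by limma or had an unadjusted p under 0.05. Eif2ak3 had 2 probes, both undetected on every array. Ern1, the kinase and nuclease that splices Xbp1 mRNA, read 8.10, 8.05 and 7.94 in CD133- and 7.85, 7.82 and 8.10 in CD133+ cells, with overlapping groups and a difference of -0.11 ± 0.11 (adjusted p = 0.675). Atf6, the sensor that is cleaved to a transcription factor, was detected on 4 arrays by ILMN_2451709, at 5.11, 4.85 and 4.98 against 4.86, 5.53 and 4.89. One CD133+ array stood above the other values, and the difference of 0.12 ± 0.18 (adjusted p = 0.796) became -0.10 without it. Its second probe, ILMN_2454587, detected on 3 arrays, had the opposite sign at -0.14 ± 0.12.

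Of 7 probes of 5 transcription factors, 0 passed by limma and 0 had an unadjusted p under 0.05. Xbp1, the target of Ern1, read 9.50, 9.87 and 9.86 against 9.86, 9.79 and 9.81. The first CD133- array was the low one, and the difference was 0.07 ± 0.12 (95% interval -0.20 to 0.35, adjusted p = 0.801), or -0.11 under the median shift. These probes were not used to tell spliced from unspliced Xbp1 mRNA. Atf4, translated when Eif2ak3 is active, had 2 probes of opposite sign. ILMN_1223734 read 9.68, 9.69 and 9.67 against 9.83, 9.80 and 9.81, with every CD133+ value higher. The difference was 0.14 ± 0.08 (adjusted p = 0.422), or -0.05 under the median shift. This probe's own SDs were 0.012 and 0.014 (n = 3), so its standard error came mostly from the variance shared by all tested probes. ILMN_2642681 read 12.10, 11.92 and 11.98 against 11.81, 11.97 and 11.90, overlapping at -0.10 ± 0.09 (adjusted p = 0.627). Ddit3, the pro-apoptotic factor CHOP, read 7.92, 8.26 and 8.29 against 8.32, 8.07 and 8.12, a difference of 0.02 ± 0.13 (adjusted p = 0.959), or -0.12 under the median shift. Its second probe differed by 0.12 ± 0.12. Atf3, a stress-induced repressor, read 7.44, 7.05 and 7.26 against 7.24, 7.00 and 6.88, also with overlap (-0.21 ± 0.14, adjusted p = 0.489), and Atf5 differed by -0.08.

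The group of outputs of the Eif2ak3 and Atf4 branch, listed together with the constitutive Ppp1r15b, had 6 tested probes of 4 genes. Of the 6 probes, 0 passed by limma or had an unadjusted p under 0.05. Ppp1r15a (GADD34), which recruits the phosphatase that ends the translation block, read 8.80, 8.73 and 8.96 against 8.47, 8.70 and 8.67. All CD133+ values were lower, with a difference of -0.21 ± 0.10 (adjusted p = 0.360). Chac1, a glutathione-degrading enzyme induced by Atf4, read 10.75, 11.01 and 10.93 against 10.86, 10.87 and 11.00, overlapping at 0.01 ± 0.10. The 3 Trib3 probes differed by -0.15, 0.17 and 0.21, and the constitutive Ppp1r15b by 0.00.

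**Figure D4:**
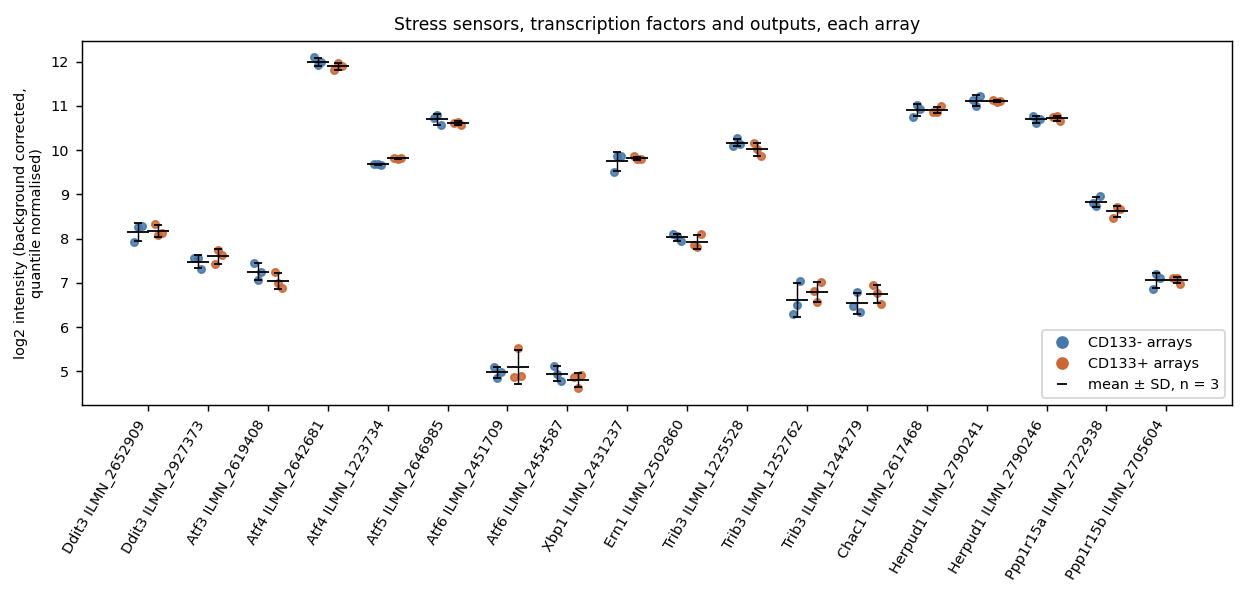
Log2 intensity (y axis) of each tested probe of the stress sensors, the transcription factors and their output genes, with Ppp1r15b and Herpud1 (x axis). CD133- arrays are blue and CD133+ arrays orange, and black bars give the mean and SD of 3 arrays. The groups overlap for most probes, and Atf4 ILMN_1223734 and Ppp1r15a are the probes where they do not.

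Degradation of misfolded proteins (ERAD) was covered by 9 tested probes of 6 genes, of which 0 passed by limma. Of the 9 probes, 1 had an unadjusted p under 0.05 (11.1%, beside 16.6% of all tested probes). Derl2, a subunit of the retrotranslocation channel, read 6.56, 6.73 and 6.54 in CD133- and 6.32, 6.34 and 6.36 in CD133+ cells with ILMN_2685124. The groups were apart, at -0.27 ± 0.09 (adjusted p = 0.181), while its other tested probe differed by 0.05. Edem1, which targets mannose-trimmed glycoproteins for degradation, was detected on 5 arrays and read 4.99, 5.10 and 4.68 against 5.07, 5.49 and 5.21. These values overlapped (0.33 ± 0.15, adjusted p = 0.323). Herpud1, a stress-induced scaffold of the ubiquitin ligase Syvn1, read 11.12, 11.00 and 11.23 against 11.13, 11.09 and 11.11, a difference of -0.01 ± 0.09 (adjusted p = 0.973). The ligase Syvn1 (0.04), its adaptor Sel1l (0.08 and -0.15) and the lectin Os9 (0.07) did not pass, and Derl1 had no tested probe.

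Translocation and signal cleavage had 10 tested probes of 6 genes, 0 passing by limma. Of the 10 probes, 1 had an unadjusted p under 0.05 (10%, beside 16.6% of all tested probes). Sec61a1, the pore of the protein-conducting channel, read 8.83, 8.87 and 8.97 on the CD133- arrays and 8.53, 8.51 and 8.56 on the CD133+ arrays with ILMN_3162476. Each CD133+ array lay below each CD133- array, and the difference was -0.36 ± 0.08 (95% interval -0.55 to -0.17, adjusted p = 0.0856). It passed without background correction (-0.29, adjusted p = 0.00508) and on the authors' intensities (-0.29, adjusted p = 0.00462). In those settings 6.43% and 6.72% of all tested probes passed. Its second probe, ILMN_1243932, was detected on 2 CD133- arrays and on 0 CD133+ arrays and was not tested. It averaged 5.34 ± 0.38 in CD133- and 4.89 ± 0.03 in CD133+ cells (SD, n = 3). The CD133- mean was 1.35-fold the CD133+ floor, a ratio that does not take in the CD133- spread. That floor is the mean of the higher of each array's lowest detected signal and the probe's own signal. The groups overlapped, at 4.91 on the third CD133- array and 4.92 on the first CD133+ array. Spcs1, a subunit of the signal peptidase, read 10.35, 10.27 and 10.19 against 10.41, 10.46 and 10.46 with ILMN_2728320, all CD133+ values being higher at 0.18 ± 0.08 (adjusted p = 0.344). Sec61b (0.11 and 0.06), Sec63 (-0.13, -0.08 and 0.01), Ssr1 (-0.02) and Ssr3 (0.07), further parts of the translocation machinery, did not pass, and Sec62 and Spcs2 had no tested probe.

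**Figure D5:**
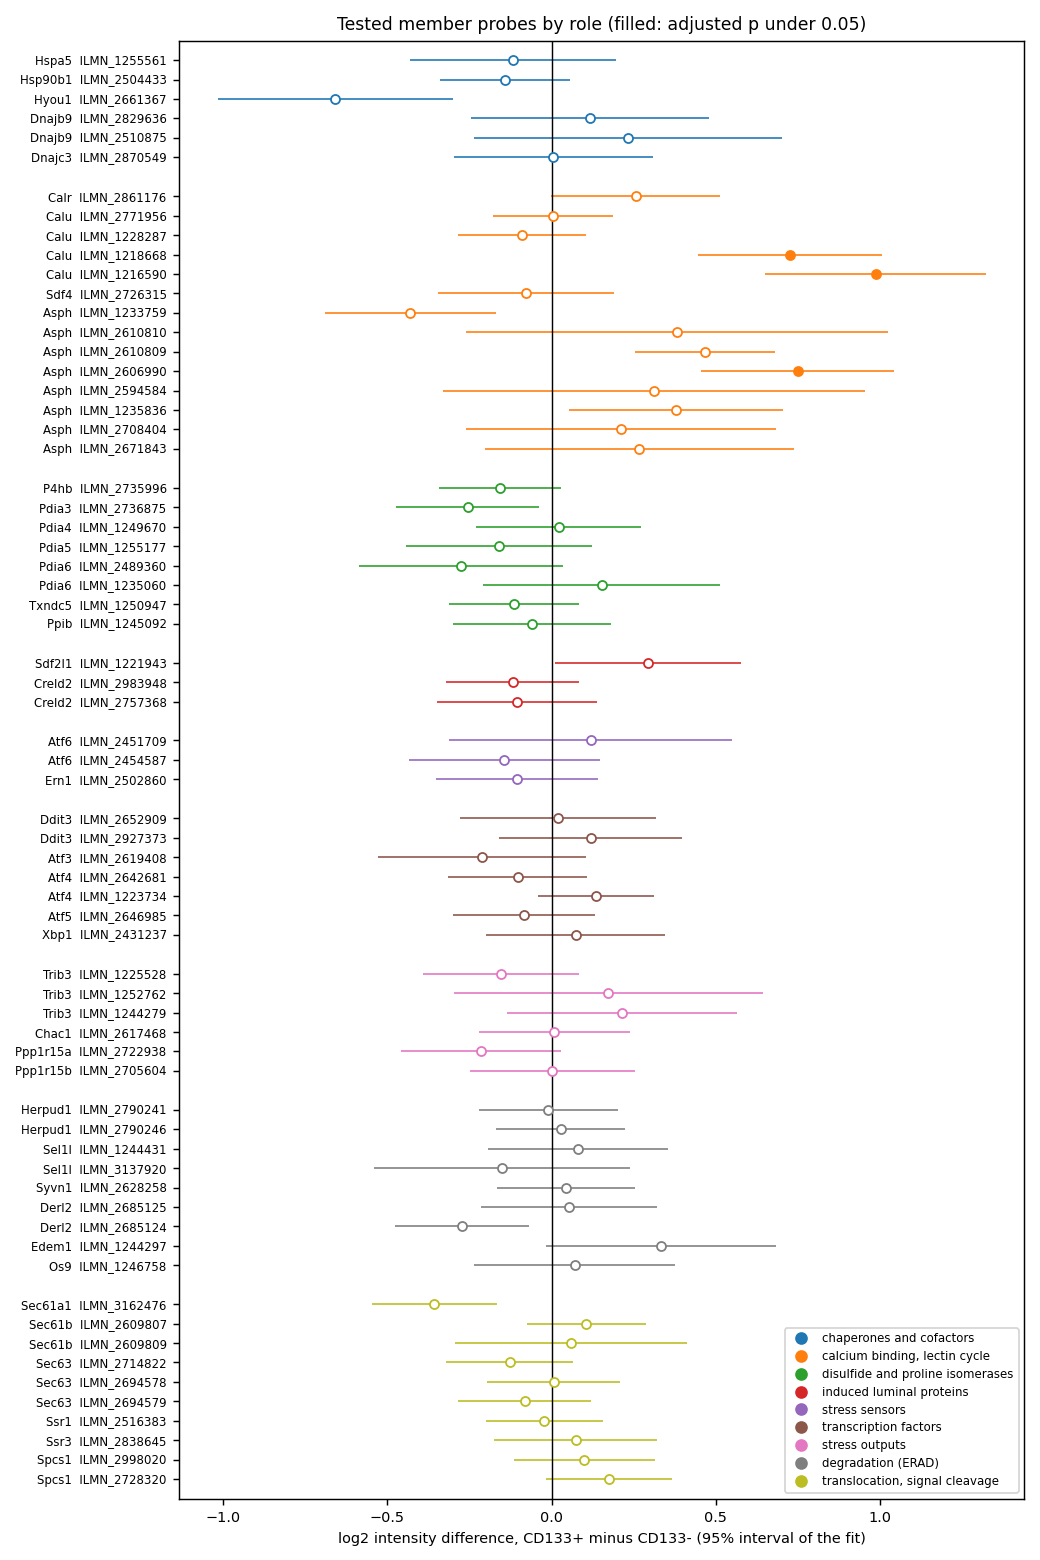
Log2 difference between CD133+ and CD133- cells with its 95% interval (x axis) for each of the 66 tested member probes (y axis), coloured by role and filled where the adjusted p was under 0.05. Filled points occur in the calcium-binding and lectin group, and most other intervals cross zero.

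Of the 104 member probes, 38 were not tested, 30 of them undetected on every array. The 10 genes with no tested probe had 15 probes between 4.24 and 5.12 on the log2 scale. They were Canx, Uggt1, Rcn1, Rcn2, Rcn3, Manf, Eif2ak3, Derl1, Sec62 and Spcs2, and 13 of the 15 probes were undetected on every array. A probe not above background sets only a bound on its gene, so these genes could not be compared at this sensitivity.

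A further 97 gene symbols of the same compartment were listed in 5 lists. Some were alternative symbols of the same gene, such as Ufd1l and Ufd1. Of the symbols 84 had a probe, with 108 tested probes of 72 genes. Of these, 4 probes passed (3.70%), all higher in CD133+ cells, beside 1.53% of all tested probes (1.25% higher). An unadjusted p under 0.05 was found for 21 (19.4%), 13 higher and 8 lower, beside 16.6% of all tested probes, and the median difference was 0.01. Spcs3, a subunit of the signal peptidase, read 7.08, 7.11 and 7.04 in CD133- and 7.81, 7.95 and 7.87 in CD133+ cells. It rose by 0.80 ± 0.08, or 1.74-fold (adjusted p = 0.0147), while its other tested probe differed by 0.09 ± 0.09. Tram1, a membrane protein beside the translocation channel, read 8.33, 8.46 and 8.25 against 9.23, 9.24 and 9.12. It rose 1.80-fold (0.85 ± 0.09, adjusted p = 0.0169) by this probe, and by its other probes it differed by 0.07 and -0.01. Srp54a, the signal-sequence-binding subunit of the signal recognition particle, read 7.98, 7.77 and 7.99 against 8.70, 8.87 and 8.71. It rose 1.79-fold (0.84 ± 0.10, adjusted p = 0.0175), and its other probe was not tested. Ganab, the catalytic subunit of glucosidase II, read 7.88, 7.88 and 7.85 against 8.26, 8.40 and 8.28 with ILMN_1225535. That probe rose 1.36-fold (0.44 ± 0.08, adjusted p = 0.0492), and ILMN_2940440 had the opposite sign at -0.21 ± 0.09 with an unadjusted p of 0.0453, as did ILMN_1237089 at -0.18 ± 0.10 (adjusted p = 0.414). Leaving out any 1 array ended all 4 calls, with adjusted p from 0.0591 to 0.0821 for Spcs3, 0.0591 to 0.0838 for Tram1, 0.0625 to 0.0838 for Srp54a and 0.118 to 0.143 for Ganab.

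By list, the translocation and signal cleavage genes had 3 passing probes of 23 (13.0%, beside 1.53% of all tested probes). They had 4 at an unadjusted p under 0.05 (17.4%, beside 16.6%), and all of these were higher. The redox and folding list had 0 passing of 20 by limma and 2 at an unadjusted p under 0.05 (10%). The ERAD list had 0 of 19 and 1 (5.26%), and the stress signalling list 0 of 31 and 5 (16.1%). In 36 pairs of probes of 23 of these genes, 1 pair (2.78%, beside 1.03% of all pairs) passed the test of unequal change. It was between Tram1 ILMN_2781938 and ILMN_2509139 (-0.86 ± 0.14, adjusted p = 0.038). An unadjusted p under 0.05 was found for 8 pairs (22.2%), beside 16.1% of all pairs. The dimmer probe moved up relative to the brightest in these 8, as in 566 of the 856 such pairs of all genes.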

How the data were processed

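RNA from 3 CD133+ and 3 CD133- samples of KPC001 was measured on 1 array each. Groups came from the label for the cell population and replicate numbers from the titles, the sample without a number being replicate 1. Per the file headers, the deposited table gives for each probe and array a linear bead intensity, not normalised, its standard error, a bead count and a detection p-value. A second table holds intensities that the authors processed by a method not given in the sources used here. Against the first table its columns had a rank correlation of 1, ratios of 0.852 to 1.105 and medians of 118.7 to 120.5, so they are linear and not centred. No slide or scan was given in the sources used here.

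Intensities were background-corrected with negative controls that limma infers from detection p-values (offset 16), quantile-normalised and taken to log2 (neqc of limma 3.58.1, R 4.3.3). The offset makes differences of dim probes smaller. Probes of a gene were kept apart. Groups were compared with lmFit and eBayes, two-sided and without covariates, over all 17219 tested probes, with Benjamini-Hochberg adjustment. The gaps between probes of a gene were tested the same way over 5322 pairs. The procedure was tested on simulated data. Precision is limited by the number of arrays, and member differences had a median standard error of 0.11. An exact permutation test of 3 against 3 arrays cannot go below a two-sided p of 0.1 and was not used. Same-numbered arrays of the groups had deviations that correlated at 0.020, 0.0018 and 0.018, so the numbers were not taken to pair the arrays.

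Gene symbols are those of the platform annotation and can be outdated. Of 45281 probes, 34885 had 1 symbol, 18 had several and 10378 were unnamed. The members and the lists of other genes and markers were chosen with earlier results of these data known. Named with all values were the passing member probes with the other tested probes of their genes, and the 20 member probes with the smallest p. So were the brightest tested probe of 15 core genes, probes in passing pairs, and the passing genes of the further lists. Of the core genes, Canx and Eif2ak3 had no tested probe and are given without values. Alternatives changed the background correction, normalisation, variance model, filter on dim probes, treatment of several probes and replicate block, used the authors' intensities, or left out an array.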

Additional observations from a re-analysis of the deposited data

How the results depend on the processing

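As reported, 264 probes, 3 member probes, 4 probes of the further genes, 55 probe pairs and 4 member pairs passed. In the same order the counts were 1108, 7, 10, 348 and 9 without background correction, 1157, 7, 11, 343 and 8 on the authors' intensities, and 1096, 7, 10, 54 and 4 with a variance trend and robust fit. They were 37, 1, 0, 74 and 5 under the median shift, 113, 1, 3, 9 and 1 without a filter on dim probes, and 555, 6, 6, 134 and 4 with detection p under 0.01 on all arrays. Background correction without negative controls gave 358, 3, 6, 85 and 5. With probes of a gene averaged, 102 genes, 0 members and 3 further genes passed. Leaving out 1 array gave 7 to 14, 0 to 0, 0 to 0, 3 to 4 and 0 to 1. With the replicate block they were 6, 0, 0, 2 and 0. The split of all passing probes was 216 higher and 48 lower as reported, 746 and 362 without background correction, 836 and 321 on the authors' intensities, 733 and 363 with the robust fit, 421 and 134 with the strict filter, and 25 and 12 under the median shift. The cause of these shifts was not tested.

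Some differences that did not pass changed sign. Under the median shift Calu ILMN_2771956 was -0.16, Atf4 ILMN_1223734 -0.046, Pdia4 -0.15, Xbp1 -0.11 and Ddit3 -0.12, where the median over all tested probes was -0.13. On the authors' intensities Herpud1 was 0.0084. Leaving out 1 array gave -0.021 to 0.020 for Calu ILMN_2771956, -0.034 to 0.36 for Asph ILMN_2708404, -0.052 to 0.11 for Pdia4, -0.047 to 0.14 for Xbp1, -0.10 to 0.24 for Atf6, -0.10 to 0.086 for Ddit3 and -0.070 to 0.049 for Herpud1. The 3 passing member probes were higher in CD133+ cells under every alternative run, at 0.28 to 1.06. A slide block was not run, since no slide was given in the sources used here. Dim probes, among them those of Atf6, Edem1, Hspa5 and several of Asph, have differences compressed by the offset.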

Other observations

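The 13 genes of N-glycan processing and transfer, which attach sugar chains to new proteins, trim them and escort glycoproteins out of the endoplasmic reticulum, had 15 tested probes of 10 genes. Of these 15 probes 1 passed (6.67%, beside 1.53% of all tested probes), that of Ganab. At an unadjusted p under 0.05 there were 9 of 15 (60%), 3 higher and 6 lower, beside 16.6% of all tested probes, and the groups did not overlap for 12 (80%), 4 higher and 8 lower, beside 23.1%. The median difference was -0.17, beside -0.02 over all tested probes, and it lay between -0.29 and -0.11 under the other settings run. The number with an unadjusted p under 0.05 and a lower signal was between 0 and 4 when 1 array was left out.

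Rpn2, a subunit of the oligosaccharyltransferase, read 12.55, 12.58 and 12.62 on the CD133- arrays and 12.35, 12.36 and 12.40 on the CD133+ arrays. Ddost, another subunit, read 8.16, 8.27 and 8.29 against 7.99, 8.08 and 7.97. Both had their CD133+ arrays lowest, at -0.21 ± 0.08 (limma, adjusted p = 0.233) and -0.23 ± 0.08 (adjusted p = 0.237), and neither passed. Lman1, a cargo receptor for export to the Golgi, read 8.31, 8.36 and 8.39 against 8.03, 8.01 and 8.25, again without overlap and without passing (-0.26 ± 0.10, adjusted p = 0.236). Of the catalytic subunits, Stt3a differed by -0.17 ± 0.09, and the 3 probes of Stt3b by 0.56 ± 0.11 (adjusted p = 0.0596), 0.53 ± 0.16 (adjusted p = 0.162) and -0.12 ± 0.08 (adjusted p = 0.496). These genes were singled out after their values were seen.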
